A study of Mus musculus with 8 samples.

Results

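Mitochondrial carrier genes were followed in mouse livers after ischemia/reperfusion (I/R). The group holds every row of the deposited expression table that is annotated as protein coding and whose symbol begins with Slc25a and a number, together with Ucp1, Ucp2 and Ucp3. It came to 50 of the 54532 listed genes, namely 47 Slc25a genes and 3 Ucp genes. Expression had been measured by RNA sequencing in the liver of 8 mice, 4 of the METTL3-HKD and 4 of the METTL3-Flox genotype, with 1 library per mouse. The liver had been ischemic for 1 h and then reperfused for 6 h. All 8 mice had undergone I/R, so the values below compare genotypes in injured liver and give no uninjured level.

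METTL3-Flox mice carried loxP sites around exon 4 of METTL3 on both alleles and served as littermate controls. METTL3-HKD mice were heterozygous, with the genotype METTL3 flox/- and Alb-iCre. The albumin promoter drives the recombinase, and the paper describes the knockdown as specific to hepatocytes. Whether other cells of the liver were affected is not given in the sources used here. The floxed strain was on a C57BL/6 background, and the age of the mice sequenced here is not given in the sources used here. METTL3 is the catalytic subunit of the complex that writes N6-methyladenosine into RNA. Mettl3 itself stood at 1.56, 1.39, 1.17 and 1.20 FPKM across METTL3-HKD mice, against 1.84, 1.16, 1.45 and 1.54 FPKM across METTL3-Flox mice. The groups overlapped (log2 fold change -0.16, limma adjusted p = 0.556). This value is a total over the gene, and exon 4 was not examined by itself, so it did not check the genotype labels. The paper states that loss of METTL3 in the liver was checked separately.

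Mitochondrial carriers are small proteins of the inner mitochondrial membrane, built from repeats of the same fold, that exchange nucleotides, phosphate, carboxylates, amino acids and cofactors between the matrix and the cytosol. Through them the liver supplies the urea cycle with ornithine and aspartate, exports citrate for lipid synthesis, runs the malate-aspartate shuttle and returns ATP to the cytosol. A few members have moved elsewhere, such as Slc25a17 in peroxisomes and Slc25a46 in the outer mitochondrial membrane. FPKM, the unit of the deposited values, counts fragments per kilobase of gene relative to a library size, so levels may be compared between genes of a liver. Comparison between livers rests on the scaling in the deposited values, whose method is not given in the sources used here. By the median ratio of genes to their mean over livers, the deposited values were already even, with a factor of 1.01 in every liver. The FPKM of all genes summed to 335664 in METTL3-HKD liver 1, the lowest, and 534423 in METTL3-Flox liver 1, the highest. Where 4 values of a genotype are given, they stand in the order of mouse number, 1 to 4.

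Depth was similar in the 8 libraries, with 15861245 to 18434488 reads on genes. Summed neutrophil markers were far higher in METTL3-HKD livers, at 330 to 1610 FPKM against 12.8 to 44.2 FPKM, and 7 of 7 rose. Of the Kupffer cell and macrophage markers 3 of 6 fell, and 4 of 5 cholangiocyte markers rose. All 4 globin genes rose among 5 tested erythroid markers, while Alas2 differed by -0.98 on the log2 scale (limma adjusted p = 0.103). Of 6 hepatic stellate cell markers Des rose, and Lrat and Colec11 fell. Des had 7.75, 2.18, 8.05 and 2.41 FPKM across METTL3-HKD mice, against 1.14 to 1.82 FPKM in METTL3-Flox mice. METTL3-HKD livers 1 and 3 also held the skeletal muscle transcripts given with Ucp3 below, and their part in Des was not tested. Of 7 hepatocyte markers 0 passed the test in limma and 0 had an unadjusted p under 0.05, with summed levels of 26400 to 37900 FPKM in METTL3-HKD and 33600 to 40000 FPKM in METTL3-Flox livers. METTL3-HKD livers 1 and 2, at 26400 and 27400 FPKM, were below the other 6 livers, and the median log2 fold change of the 7 markers was -0.36. The hepatocyte markers were at high levels in every liver, as the tissue label says. Fewer cells of a type and less RNA per cell cannot be told apart in such bulk samples. The part of these other cells in the carrier values was not tested.

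The mean level over the 8 livers ran from 0.149 FPKM for Slc25a2 to 190 FPKM for Slc25a5 among the carriers that were tested. Slc25a5, the main ADP/ATP translocase of liver, was highest, followed by Slc25a47, a carrier found mostly in liver, and Slc25a39, which brings glutathione into the matrix. These 3 genes made up 41.9% to 47.4% of the summed carrier FPKM of a liver. The next were Slc25a1 (citrate), Slc25a15 (ornithine), Slc25a3 (phosphate), Slc25a13 (aspartate and glutamate) and Slc25a10 (dicarboxylates), and these 8 genes together held 66.6% to 72.6% of the sum. A mean of at least 10 FPKM was reached by 21 of the 50 genes. The summed level was 923, 928, 1070 and 1070 FPKM across METTL3-HKD mice, against 1110, 1170, 1040 and 1090 FPKM across METTL3-Flox mice. The groups overlapped in this sum.

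**Figure D1:**
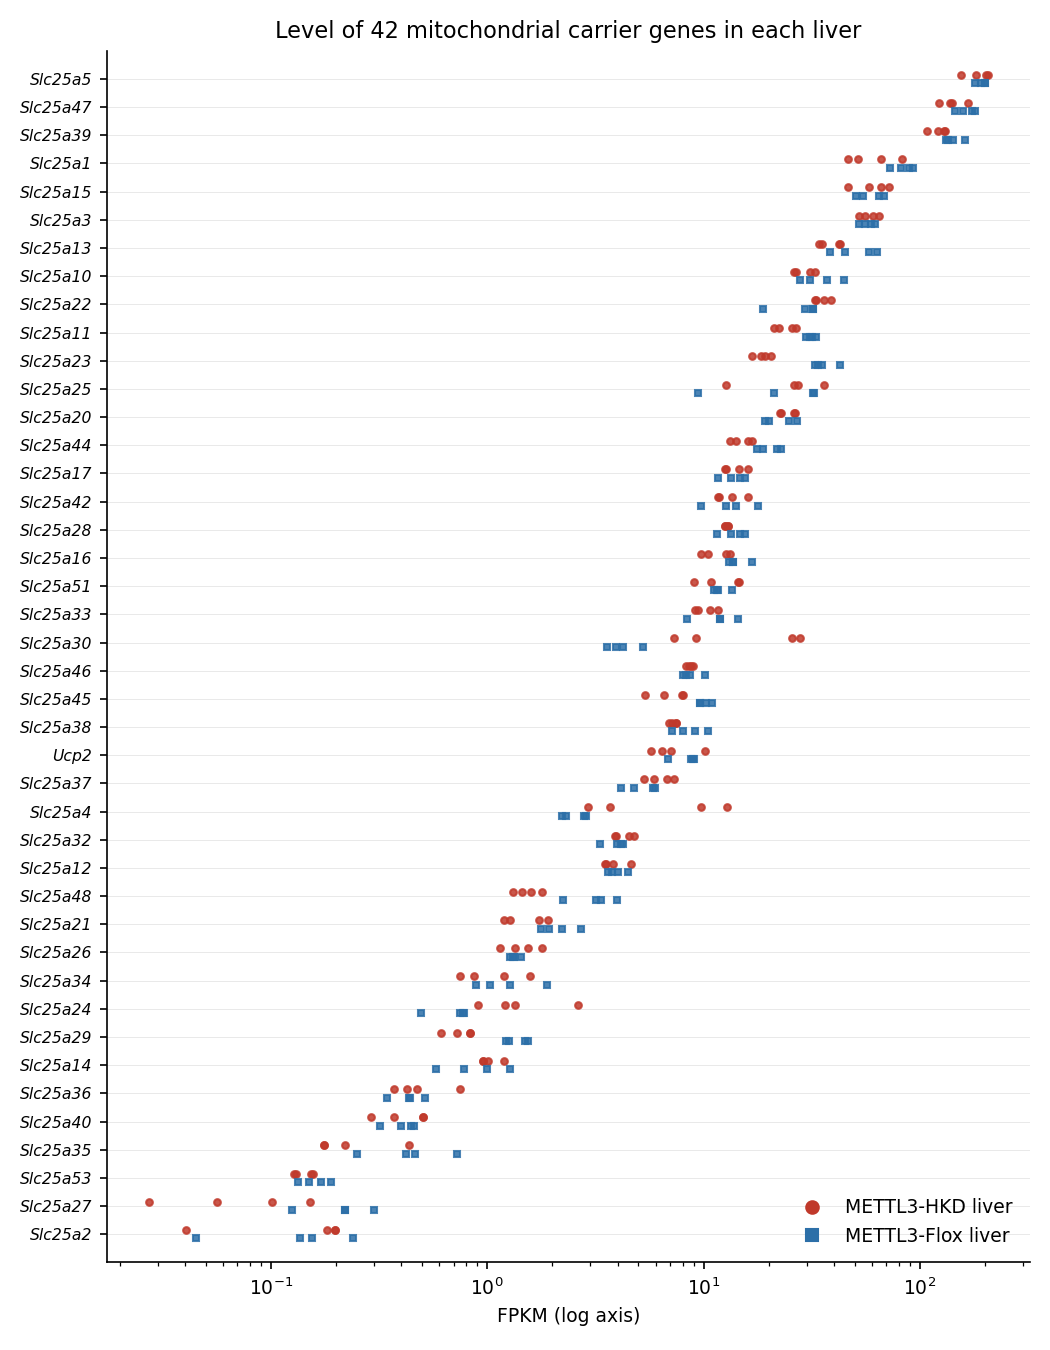
Level of 42 tested carrier genes in each liver, in FPKM on a log axis, ordered by mean level; circles are the 4 METTL3-HKD and squares the 4 METTL3-Flox livers. Slc25a5, Slc25a47 and Slc25a39 lie at or above 108 FPKM in all livers, and the 2 groups separate clearly for Slc25a23, Slc25a48, Slc25a29 and Slc25a30.

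At the low end, 43 of the 50 carriers averaged 0.1 FPKM or more and entered the test, and 7 did not. The brown fat uncoupling protein Ucp1 had 2 reads in 1 METTL3-Flox liver and 0 in the other 7 livers. Slc25a41 and Slc25a54, both of the ATP-Mg/phosphate branch, had 0 reads in every liver, which allows up to 0.159 and 0.119 FPKM in a single liver, the level of 3 reads. Slc25a31, the ADP/ATP translocase of testis, had 1 read in METTL3-HKD and 3 reads in METTL3-Flox livers. Slc25a43 had 11 and 5 reads, and the glutamate carrier Slc25a18 had 16 and 4 reads. Of the exon bases of Slc25a18, 32 (1.67%) are shared with Atp6v1e1 on the opposite strand, which had a mean of 19.8 FPKM. The seventh, Ucp3, is described with Slc25a4 below. Such intervals and floors cover counting error only.

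Of the tested carriers 7 passed the test between genotypes, a share of 16.3% that lay near the 15.7% of all genes. With the deposited scaling 1 of them was higher and 6 were lower in METTL3-HKD livers, whereas 2 were higher and 3 lower when each liver was scaled to its reads on genes. In limma with Benjamini-Hochberg adjustment over 16645 genes, 1 of the 43 tested carriers rose (Slc25a30, 2.33%) and 6 fell (Slc25a23, Slc25a48, Slc25a29, Slc25a11, Slc25a45 and Slc25a44, 14.0%) at an adjusted p under 0.05. Over all genes tested, 9.05% were higher and 6.63% lower. When the change also had to reach 1 in size on the log2 scale, Slc25a30 was the 1 carrier higher and 0 were lower, against 4.7% and 1.52% of all genes. At an unadjusted p under 0.05, 11 carriers were lower and 3 higher, together 32.6% of those tested beside 31.9% of all genes.

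Regardless of the test, 4 carriers (9.3%) were higher in each METTL3-HKD liver than in any METTL3-Flox liver, against 12.7% of all genes, and 7 carriers (16.3%) were lower, against 9.95%. The 4 carriers above were Slc25a30, Slc25a24, Slc25a4 and Slc25a22, and the 7 below were the 6 that fell and Slc25a39. Of the 43 log2 fold changes 26 were negative and 17 positive. Their median was -0.10, beside -0.00279 over all genes tested. The deposited FPKM had been scaled between livers, and when they were scaled to each liver's reads on genes instead, the median of all genes moved to 0.20 and that of the carriers to 0.11. Under that scaling Slc25a23, Slc25a48 and Slc25a29 remained lower and Slc25a30 higher, Slc25a4 was also past the threshold, and Slc25a11, Slc25a44 and Slc25a45 were not. The share of higher genes among all calls was 57.7% as deposited and 86.1% with the reads on genes.

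**Figure D2:**
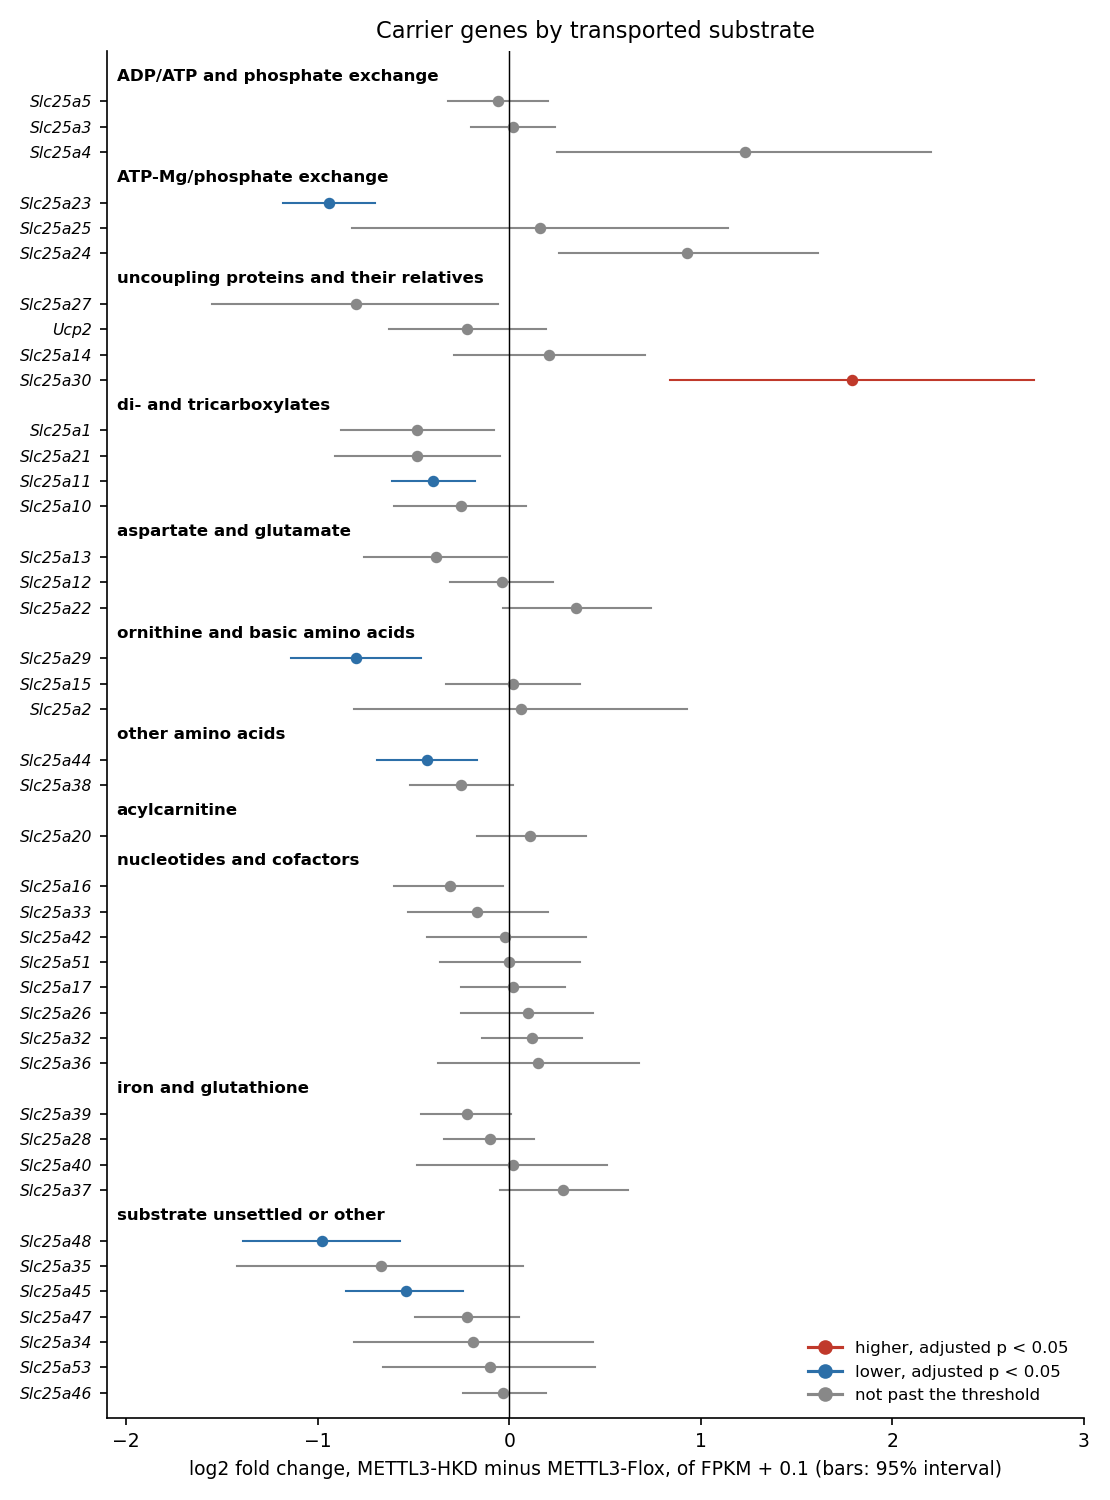
Log2 fold change of 42 tested carriers, METTL3-HKD minus METTL3-Flox, of FPKM + 0.1, grouped by transported substrate; points are estimates from limma and bars their 95% intervals. Slc25a30 at 1.79 is the 1 carrier drawn as higher, and the 6 drawn as lower run from -0.98 for Slc25a48 to -0.40 for Slc25a11.

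Slc25a23 was the clearest of these. It is a calcium-regulated carrier that exchanges ATP-Mg for phosphate and so sets the adenine nucleotide pool of the matrix. It is listed as ENSMUSG00000046329 on the minus strand of chromosome 17 from 57043711 to 57059863. Its level was 16.8, 18.4, 19.2 and 20.5 FPKM across METTL3-HKD mice, against 32.7, 35.2, 42.5 and 33.9 FPKM across METTL3-Flox mice. All 4 METTL3-HKD livers lay well below the lowest METTL3-Flox liver, and the spread within each group was small beside the gap. The log2 fold change was -0.94 (SE 0.107, limma adjusted p = 0.00281), a 1.93-fold difference of the means, and it passed under 18 of 18 other settings of the fit. Without METTL3-HKD livers 1 and 3, taken up with Slc25a4, it was -0.88 (limma adjusted p = 0.0189). Of its exon bases 168 (3.17%) are shared with Gm17168 on the opposite strand, which had a mean of 0.450 FPKM, and the strand setting of the counting is not given in the sources used here.

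The rest of the ATP-Mg/phosphate branch did not follow it. Slc25a25 varied widely, at 26.2, 12.7, 27.4 and 36.0 FPKM across METTL3-HKD mice, against 32.5, 31.9, 21.2 and 9.46 FPKM across METTL3-Flox mice. The groups overlapped throughout (log2 fold change 0.16, 95% interval -0.82 to 1.14). Slc25a24 stood at 2.62, 1.34, 0.904 and 1.21 FPKM across METTL3-HKD mice, against 0.492, 0.776, 0.748 and 0.779 FPKM across METTL3-Flox mice. The groups did not overlap, with METTL3-HKD liver 1 highest and METTL3-Flox liver 1 lowest, but the adjusted p in limma was 0.0634 (log2 fold change 0.93, SE 0.297). It was 0.0329 without METTL3-HKD liver 3 (log2 fold change 1.13) and 0.0473 when the fit held protein-coding genes only.

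Slc25a30, a close relative of the uncoupling proteins first described in kidney, was the carrier with the largest fold change among those tested. It is listed as ENSMUSG00000022003 on the minus strand of chromosome 14 from 75760117 to 75787037. METTL3-HKD mice had 27.8, 25.7, 9.20 and 7.30 FPKM, whereas METTL3-Flox mice had 3.59, 5.25, 4.26 and 3.93 FPKM. The METTL3-Flox livers were close together, whereas METTL3-HKD livers 1 and 2 were far above METTL3-HKD livers 3 and 4, which were themselves above every METTL3-Flox liver. The log2 fold change was 1.79 (SE 0.42, limma adjusted p = 0.0248), a 4.11-fold difference of the means. Those 2 livers were also the lowest in the summed hepatocyte markers, and the part of this in the difference was not tested. The size varied from 1.49 to 2.13 when 1 liver was left out. The adjusted p then lay between 0.0518 and 0.0643 without METTL3-HKD liver 1, METTL3-HKD liver 2, or METTL3-Flox liver 1, 3 or 4.

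Ucp2 and the other relatives that could be tested gave no call, while Ucp1 and Ucp3 were not tested. Ucp2, which is found in many tissues and in immune cells, had 10.2, 7.05, 5.69 and 6.39 FPKM across METTL3-HKD mice, against 8.75, 8.96, 9.05 and 6.84 FPKM across METTL3-Flox mice. The highest and the lowest value both belonged to METTL3-HKD livers (log2 fold change -0.22, 95% interval -0.63 to 0.19). METTL3-HKD liver 1, the highest for Ucp2, was also the highest for the summed neutrophil markers at 1610 FPKM. METTL3-HKD livers 2, 3 and 4 had neutrophil sums of 379, 330 and 544 FPKM. METTL3-Flox livers 1 to 3 had sums of 12.8 to 44.2 FPKM and more Ucp2 than those livers. METTL3-Flox liver 4, with a sum of 24.6 FPKM, had less Ucp2 than METTL3-HKD liver 2 and more than METTL3-HKD livers 3 and 4. The part of neutrophils in Ucp2 was not tested. Slc25a27, mostly a brain carrier, was low in both groups, at 0.0273 to 0.151 and 0.125 to 0.301 FPKM (log2 fold change -0.80, limma adjusted p = 0.131). Slc25a14 was at 0.956 to 1.20 and 0.578 to 1.28 FPKM.

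The start regions of 3 carriers that changed are printed here. That of Slc25a29, lower in METTL3-HKD livers, is shown because it is shared with Slc25a47, which did not pass the test. Those of Slc25a23, with the smallest adjusted p, and Slc25a30, the 1 carrier that rose, are shown beside it. The pair lies head to head on chromosome 12, Slc25a29 on the minus and Slc25a47 on the plus strand, with 162 bases and 0 protein-coding genes between the annotated genes. Those bases are chr12:108835884-108836045, and the stretches shown with them are the 250 bases before the starts of Slc25a23 (chr17:57059864-57060113) and Slc25a30 (chr14:75787038-75787287). All are from RefSeq windows of GRCm38.p6 on the minus strand, read 5′ to 3′, with CCAAT boxes (CCAAT) and GC boxes (GGGCGG) on either strand in capitals.
Slc25a29 and Slc25a47: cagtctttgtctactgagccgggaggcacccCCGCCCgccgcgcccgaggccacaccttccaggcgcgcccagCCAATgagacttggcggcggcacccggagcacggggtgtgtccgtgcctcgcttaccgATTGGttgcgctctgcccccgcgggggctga
Slc25a23: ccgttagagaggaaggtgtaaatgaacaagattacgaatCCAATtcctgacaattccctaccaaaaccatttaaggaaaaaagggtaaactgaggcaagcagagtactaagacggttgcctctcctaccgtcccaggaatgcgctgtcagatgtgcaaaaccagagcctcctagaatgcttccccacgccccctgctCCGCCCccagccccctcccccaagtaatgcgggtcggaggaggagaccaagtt
Slc25a30: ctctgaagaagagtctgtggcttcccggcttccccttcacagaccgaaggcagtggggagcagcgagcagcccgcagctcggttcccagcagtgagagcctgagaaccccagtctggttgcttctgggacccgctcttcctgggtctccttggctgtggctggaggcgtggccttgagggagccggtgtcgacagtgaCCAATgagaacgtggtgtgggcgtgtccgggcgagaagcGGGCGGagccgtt
The shared stretch held 2 CCAAT boxes and 1 GC box at 71.6% G and C, and the other stretches held 1 of each, at 52.4% for Slc25a23 and 64.4% for Slc25a30. RefSeq windows were matched by symbol for 39 of the 49 carriers looked up, and for 6 of the 7 that changed. Searched on both strands from 250 bases before to 50 bases after the start, a GC box stood in 79.6% of the 49 carrier windows and in 35.7% of all 32851 windows. CCAAT stood in 44.9% and 37.4%, and the E-box CACGTG in 16.3% and 7.15%. The cyclic AMP response element TGACGTCA was in 4.08% and 1.79% of windows, and the AP-1 site TGANTCA in 4.08% and 7.81%. The oestrogen-related receptor site TCAAGGTCA and the ATF4 composite site TGATGNAAT were in 0 carrier windows, against 0.423% and 0.965% of all windows. These are matches of letters and say nothing of binding.

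Slc25a29 carries arginine, lysine and other basic amino acids, and is listed as ENSMUSG00000021265 on chromosome 12 from 108825873 to 108835883. Its level was 0.610, 0.831, 0.829 and 0.723 FPKM across METTL3-HKD mice, against 1.49, 1.26, 1.54 and 1.22 FPKM across METTL3-Flox mice. Every METTL3-HKD liver was lower than every METTL3-Flox liver. Its log2 fold change was -0.80 (SE 0.152, limma adjusted p = 0.0126), a 1.84-fold difference of the means from 32 to 61 reads per liver, and it passed under 18 of 18 other settings. Without METTL3-HKD livers 1 and 3 it was -0.75 (limma adjusted p = 0.0603).

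Its neighbour Slc25a47 had 123, 138, 166 and 141 FPKM across METTL3-HKD mice, against 145, 175, 158 and 180 FPKM across METTL3-Flox mice. The groups overlapped (log2 fold change -0.22, SE 0.12, limma adjusted p = 0.246). The ornithine carrier Slc25a15, which feeds the urea cycle, had 58.3, 46.5, 65.9 and 71.9 FPKM across METTL3-HKD mice, against 64.8, 54.4, 50.5 and 68.0 FPKM across METTL3-Flox mice. Both groups covered nearly the same range (log2 fold change 0.02, 95% interval -0.33 to 0.37). Slc25a2, its close relative, was near the limit of detection with 1 to 5 reads per liver.

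Slc25a48, which has been linked to choline, is listed as ENSMUSG00000021509 on the plus strand of chromosome 13 from 56438355 to 56474239. Its level was 1.44, 1.80, 1.59 and 1.32 FPKM across METTL3-HKD mice, against 2.23, 3.36, 3.98 and 3.17 FPKM across METTL3-Flox mice. The lowest METTL3-Flox liver, number 1, was still above every METTL3-HKD liver. On the log2 scale the difference was -0.98 (SE 0.18, limma adjusted p = 0.0113), a 2.07-fold difference of the means, and it passed under 18 of 18 other settings. Without METTL3-HKD livers 1 and 3 it was -0.97 (limma adjusted p = 0.0714).

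**Figure D3:**
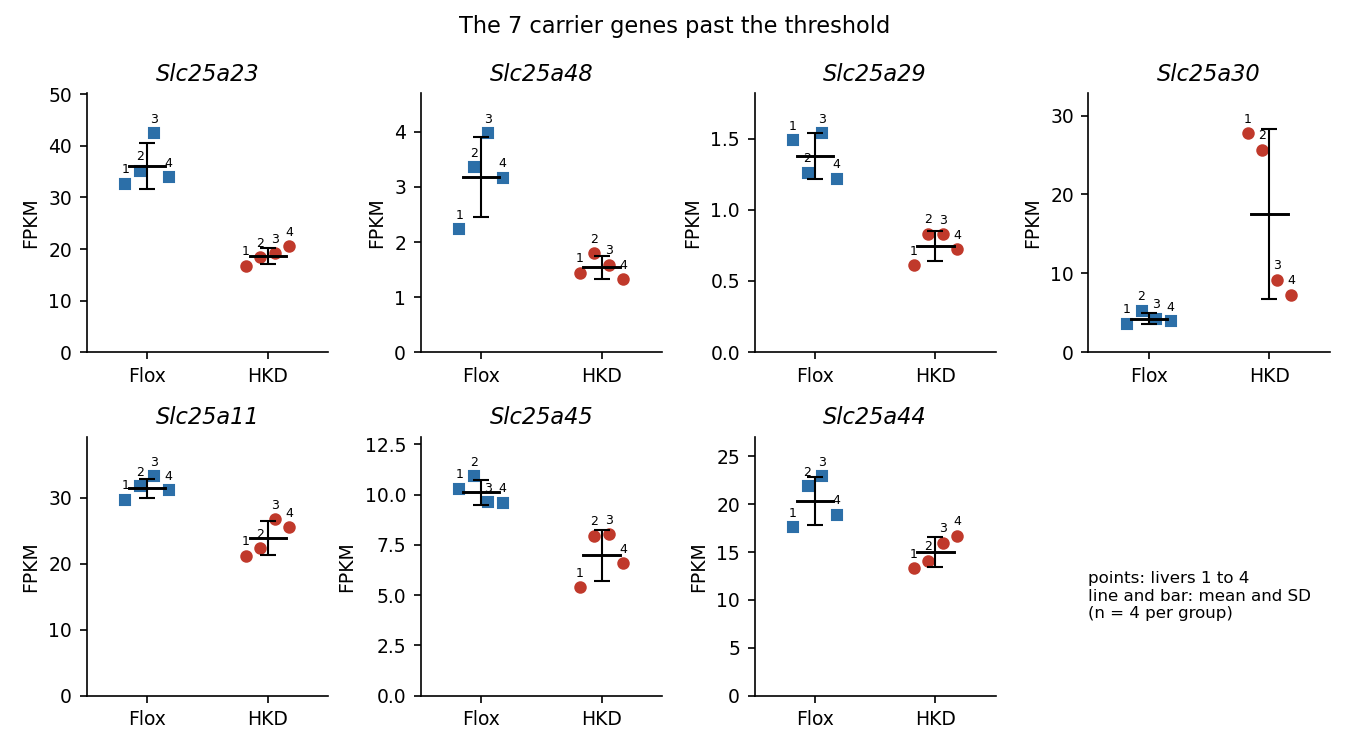
FPKM of the 7 carriers past the threshold in each liver, with squares for METTL3-Flox, circles for METTL3-HKD, the liver number beside each point, and the group mean with its SD (n = 4 per group). In 6 panels all METTL3-HKD livers lie below all METTL3-Flox livers, and for Slc25a30 METTL3-HKD livers 1 and 2 lie near 27.8 and 25.7 FPKM while livers 3 and 4 lie near 9.20 and 7.30 FPKM.

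Another carrier without a settled substrate, Slc25a45, lies on the plus strand of chromosome 19 from 5877808 to 5885766. It had 5.38, 7.96, 8.04 and 6.58 FPKM across METTL3-HKD mice, against 10.3, 10.9, 9.63 and 9.59 FPKM across METTL3-Flox mice. The groups did not overlap, and METTL3-HKD liver 1 was lowest. The log2 fold change was -0.54 (SE 0.135, limma adjusted p = 0.03). The call held under 9 of 18 other settings. The adjusted p lay between 0.0531 and 0.0757 without METTL3-HKD liver 1 or 4 or any 1 of the 4 METTL3-Flox livers. Of the other members without a settled substrate, Slc25a34, Slc25a35 and Slc25a53 overlapped between the groups, with log2 fold changes of -0.19, -0.67 and -0.10. Slc25a46, which acts in the fusion and fission of mitochondria, differed by -0.03 (95% interval -0.24 to 0.19).

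Among the carriers of di- and tricarboxylates all 4 log2 fold changes were negative, from -0.48 to -0.25, and 1 passed the test. That was Slc25a11, the oxoglutarate/malate exchanger of the malate-aspartate shuttle, on the minus strand of chromosome 11 from 70644196 to 70647479. Its level was 21.2, 22.3, 26.7 and 25.5 FPKM across METTL3-HKD mice, against 29.7, 31.7, 33.2 and 31.1 FPKM across METTL3-Flox mice. The groups were apart, with METTL3-HKD livers 1 and 2 lowest. Genotypes differed on the log2 scale by -0.40 (SE 0.0956, limma adjusted p = 0.0271), and the call held under 10 of 18 other settings. The adjusted p lay between 0.0614 and 0.0772 without METTL3-HKD liver 1 or 2 or METTL3-Flox liver 2, 3 or 4. Of its exon bases 189 (8.92%) are shared with Rnf167 on the opposite strand, which had a mean of 7.76 FPKM.

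The citrate carrier Slc25a1, which supplies the cytosol with carbon for fatty acids, had 51.6, 46.5, 65.9 and 82.6 FPKM across METTL3-HKD mice, against 92.9, 89.1, 81.7 and 73.0 FPKM across METTL3-Flox mice. METTL3-HKD liver 4 lay inside the METTL3-Flox range and the other METTL3-HKD livers below it. The fitted difference was -0.48 (SE 0.178) with a limma adjusted p of 0.0992, and of 0.035 without METTL3-HKD liver 4 (log2 fold change -0.63). The dicarboxylate carrier Slc25a10 had 26.8, 26.2, 32.6 and 30.9 FPKM across METTL3-HKD mice, against 27.8, 44.6, 31.0 and 37.2 FPKM across METTL3-Flox mice. The groups overlapped (log2 fold change -0.25, 95% interval -0.60 to 0.09). Slc25a21, which carries oxoadipate from lysine breakdown, differed by -0.48 (limma adjusted p = 0.116).

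Amino acid carriers other than Slc25a29 gave 1 further call. Slc25a44 imports branched-chain amino acids and lies on the minus strand of chromosome 3 from 88410498 to 88425139. It had 13.3, 14.1, 16.0 and 16.7 FPKM across METTL3-HKD mice, against 17.6, 21.9, 22.9 and 18.9 FPKM across METTL3-Flox mice. The groups did not overlap, though METTL3-HKD liver 4 and METTL3-Flox liver 1 were close. On the log2 scale it differed by -0.43 (SE 0.116, limma adjusted p = 0.0384), and the call held under 9 of 18 other settings. The adjusted p lay between 0.0639 and 0.101 without METTL3-HKD liver 1 or 2 or METTL3-Flox liver 2, 3 or 4. The glycine carrier Slc25a38, which serves haem synthesis, differed by -0.25 (limma adjusted p = 0.185).

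The aspartate and glutamate carriers did not pass the test. Slc25a13, also called citrin, had 35.4, 34.2, 42.6 and 42.2 FPKM across METTL3-HKD mice, against 38.2, 63.5, 44.9 and 58.0 FPKM across METTL3-Flox mice. METTL3-HKD livers 1 and 2 lay below every METTL3-Flox liver, and METTL3-HKD livers 3 and 4 lay inside the METTL3-Flox range (log2 fold change -0.38, SE 0.167, limma adjusted p = 0.151). Its relative Slc25a12 differed by -0.04 (95% interval -0.31 to 0.23). The glutamate carrier Slc25a22 had 39.0, 32.6, 33.1 and 36.1 FPKM across METTL3-HKD mice, against 29.5, 31.9, 18.9 and 32.0 FPKM across METTL3-Flox mice. All METTL3-HKD livers were above all METTL3-Flox livers by a narrow margin, and the log2 fold change of 0.35 had a limma adjusted p of 0.186.

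The carriers of ADP, ATP and phosphate include the most abundant member, Slc25a5. Slc25a5 had 155, 181, 202 and 206 FPKM across METTL3-HKD mice, against 201, 201, 180 and 191 FPKM across METTL3-Flox mice. METTL3-HKD liver 1 was lowest and the other livers lay together (log2 fold change -0.06, 95% interval -0.32 to 0.20). The phosphate carrier Slc25a3 had 55.9, 52.1, 61.0 and 64.6 FPKM across METTL3-HKD mice, against 62.1, 59.3, 52.5 and 55.9 FPKM across METTL3-Flox mice. The groups overlapped almost fully (log2 fold change 0.02, 95% interval -0.20 to 0.24).

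Slc25a4, the ADP/ATP translocase of heart and skeletal muscle, behaved differently from Slc25a5 in single livers. It lies on the minus strand of chromosome 8 from 46206797 to 46211284. Its level was 9.76, 2.92, 12.8 and 3.68 FPKM across METTL3-HKD mice, against 2.87, 2.79, 2.21 and 2.32 FPKM across METTL3-Flox mice. METTL3-HKD livers 1 and 3 were far above the rest, while METTL3-HKD livers 2 and 4 were just above the METTL3-Flox livers. Its log2 fold change was 1.23 (SE 0.431, limma adjusted p = 0.0843). The adjusted p was 0.0411 without METTL3-HKD liver 2 (log2 fold change 1.57).

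Ucp3, the uncoupling protein of skeletal muscle, had 0.206, 0.0173, 0.300 and 0 FPKM across METTL3-HKD mice, against 0 FPKM in each METTL3-Flox liver. In reads this was 31 over the METTL3-HKD livers and 0 over the METTL3-Flox livers, at least 8.47-fold higher against 3 reads over the group. METTL3-HKD livers 1 and 3 again held nearly all of it. The same 2 livers held transcripts of skeletal muscle. The summed FPKM of Ckm, Acta1, Myh4, Myh2, Tnnt3 and Pvalb was 57.1 in METTL3-HKD liver 1 and 101 in METTL3-HKD liver 3, and it was 0.0352 and 0.0185 in METTL3-HKD livers 2 and 4 and 0 to 0.0428 in METTL3-Flox livers. Of these 6 genes 0 passed the test across genotypes in limma, where their adjusted p lay between 0.175 and 0.256 and 0 had an unadjusted p under 0.05.

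Without METTL3-HKD livers 1 and 3, a fit added once the data had been seen, the log2 fold change of Slc25a4 was 0.36 (limma adjusted p = 0.267). In that smaller fit of 2 against 4 livers, 1 carrier was lower (Slc25a23) and 0 were higher, and Slc25a30 was at 1.68 (limma adjusted p = 0.0813).

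**Figure D4:**
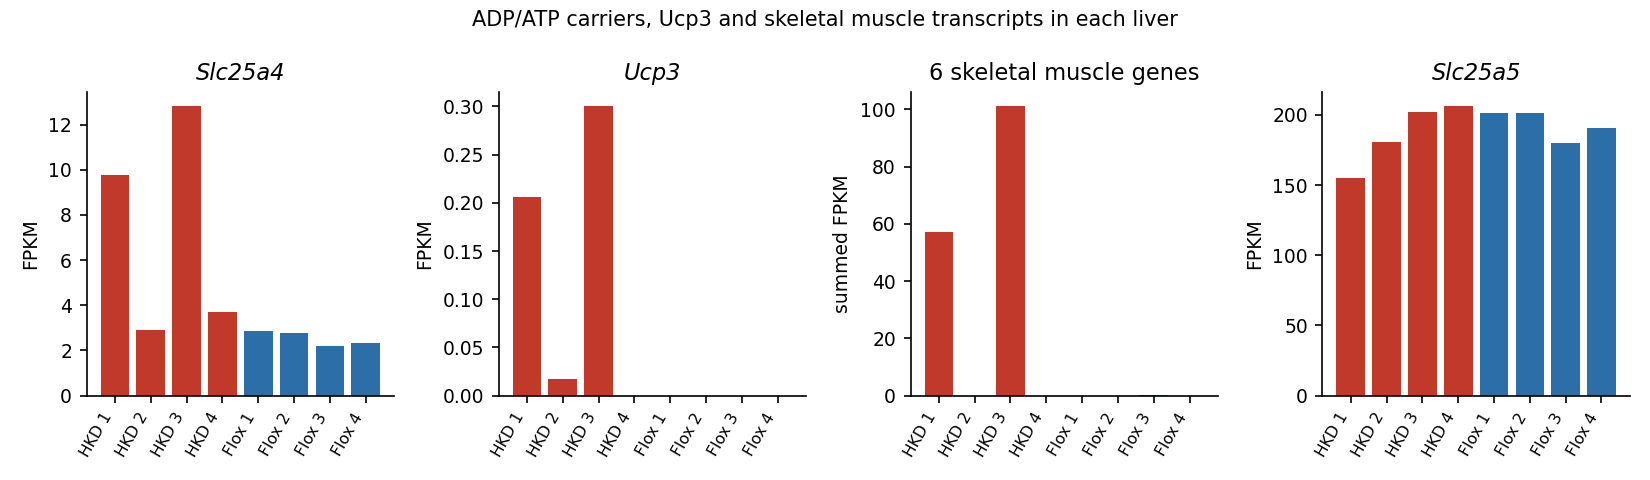
FPKM of Slc25a4, Ucp3 and Slc25a5 and the summed FPKM of 6 skeletal muscle genes in each liver; bars are single livers, red for METTL3-HKD and blue for METTL3-Flox. METTL3-HKD livers 1 and 3 stand out for Slc25a4 (9.76 and 12.8), Ucp3 (0.206 and 0.300) and the muscle genes (57.1 and 101). For Slc25a5, METTL3-HKD liver 1 is the lowest at 155 and METTL3-HKD liver 3 lies at 202 among the others.

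The 8 carriers of nucleotides and cofactors described here held 0 calls in limma, with 1 at an unadjusted p under 0.05. Their log2 fold changes ran from -0.31 to 0.15 with a median of 0.01. Slc25a16 and Slc25a42, which serve the supply of coenzyme A, differed by -0.31 and -0.02. The folate and flavin carrier Slc25a32 differed by 0.12, the S-adenosylmethionine carrier Slc25a26 by 0.10 and the NAD carrier Slc25a51 by 0.00 (95% interval -0.36 to 0.37). Slc25a26 shares 144 (3.0%) of its exon bases with Lrig1 on the opposite strand, which had a mean of 8.9 FPKM. Slc25a33 and Slc25a36, which carry pyrimidine nucleotides, differed by -0.17 and 0.15.

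Iron and glutathione carriers gave no call either. The glutathione carrier Slc25a39 had 108, 121, 129 and 130 FPKM across METTL3-HKD mice, against 161, 142, 135 and 132 FPKM across METTL3-Flox mice. The groups did not overlap, but METTL3-HKD liver 4 and METTL3-Flox liver 4 almost met, and the log2 fold change of -0.22 had a limma adjusted p of 0.181. Its relative Slc25a40 was far lower, at 0.290 to 0.503 and 0.319 to 0.458 FPKM. The mitoferrins Slc25a37 and Slc25a28, which import iron, differed by 0.28 and -0.10, with limma adjusted p of 0.222 and 0.521. Slc25a20, the single acylcarnitine carrier, had 22.5 to 26.4 FPKM in METTL3-HKD and 19.3 to 27.0 FPKM in METTL3-Flox livers (log2 fold change 0.11, 95% interval -0.17 to 0.40).

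Whether related carriers shifted against each other was asked by their ratio within each liver. Of 10 pairs chosen for related sequence or substrate 9 could be tested, and 0 passed a two-sided exact permutation test after Benjamini-Hochberg adjustment over the 9 pairs (adjusted p 0.193 to 0.429). With 4 against 4 livers the smallest p that this test allows is 0.0286, from 70 arrangements, so an adjusted p under 0.05 needed several pairs at that value. The ratio of Slc25a4 to Slc25a5 came closest, with log2 ratios of -3.98, -5.90, -3.98 and -5.77 across METTL3-HKD mice, against -6.08, -6.12, -6.29 and -6.30 across METTL3-Flox mice. The groups did not overlap, and METTL3-HKD livers 1 and 3 stood apart from livers 2 and 4 (difference 1.29, exact permutation p = 0.0286, adjusted p = 0.193). By the mean FPKM, Slc25a5 exceeded Slc25a4 by 25.6-fold in METTL3-HKD and 75.9-fold in METTL3-Flox livers. Slc25a15 exceeded Slc25a29 by 81.1-fold and 43.2-fold, with overlapping groups (difference of log2 ratios 0.82, exact permutation p = 0.0571). Slc25a23 and Slc25a25 stood at a ratio of 0.732 in METTL3-HKD and 1.52 in METTL3-Flox livers (difference of log2 ratios -1.10, exact permutation p = 0.0857).

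**Figure D5:**
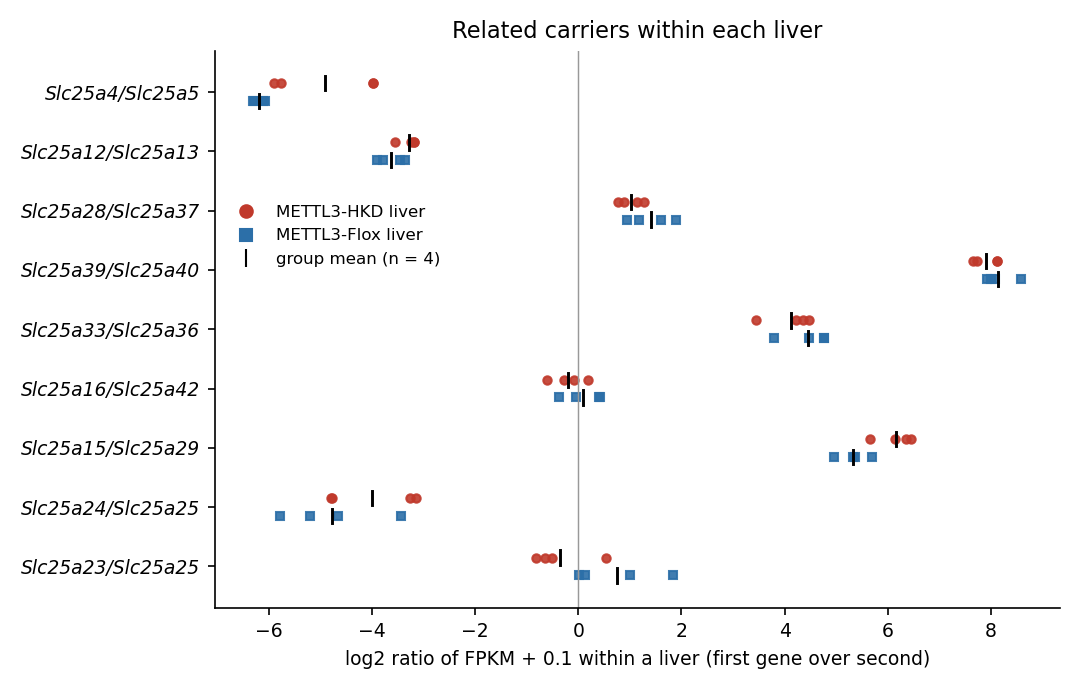
Log2 ratio of FPKM + 0.1 of 2 related carriers in the same liver for the 9 tested pairs, first gene over second; circles are METTL3-HKD livers, squares METTL3-Flox livers and black bars group means (n = 4). For Slc25a4 over Slc25a5, 2 METTL3-HKD livers lie at -3.98 and the other 2 near -5.90 and -5.77, beside -6.30 to -6.08 in METTL3-Flox livers.

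Other genes of mitochondrial transport and of the pathways the carriers serve were read from 12 lists. Of 79 tested genes 6 rose (7.59%) and 10 fell (12.7%), beside 9.05% and 6.63% of all genes. Among the sideroflexins, inner membrane carriers of a separate family that includes the serine importer Sfxn1, 3 of 4 tested fell (Sfxn1 -0.47, Sfxn2 -0.61 and Sfxn5 -0.61 on the log2 scale) and Sfxn3 rose by 0.86. The adjusted p in limma were 0.0241, 0.0154, 0.0488 and 0.0306. Sfxn2 had 5.11, 5.63, 7.36 and 6.77 FPKM across METTL3-HKD mice, against 9.16, 10.1, 9.43 and 9.06 FPKM across METTL3-Flox mice, and these groups did not overlap. In the import path that inserts carriers into the inner membrane, Tomm20, a receptor of the outer membrane, rose by 0.52 (limma adjusted p = 0.0262), as did the small chaperone Timm8a1 by 0.58 (limma adjusted p = 0.0488), and 11 of 13 genes did not pass.

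Around Slc25a11 and Slc25a13, the cytosolic shuttle enzymes Mdh1 and Gpd1 fell by 0.45 and 0.53 on the log2 scale and the mitochondrial glycerol phosphate dehydrogenase Gpd2 rose by 0.81, with limma adjusted p of 0.0494, 0.0366 and 0.0274. Around Slc25a20, Slc22a5, which brings carnitine into the cell, rose by 1.27 (limma adjusted p = 0.00844), from 7.38 to 14.5 FPKM in METTL3-Flox to 20.6 to 28.8 FPKM in METTL3-HKD livers. In the haem and iron-sulfur list, Alad, Fech and the transporter Abcb10 fell by 0.51, 0.38 and 0.66 (limma adjusted p = 0.016, 0.0343 and 0.0239). Among cofactor enzymes, Coasy, which completes coenzyme A, fell by 0.45 and the mitochondrial NAD kinase Nadk2 by 0.43 (limma adjusted p = 0.00835 and 0.0249). Nrf1, a regulator of genes of respiration, rose by 0.55 (limma adjusted p = 0.0303), and the other 6 regulators did not pass.

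The lists of the urea cycle, the pyruvate carrier, the outer membrane pores, the calcium uniporter, and citrate and lipogenesis held 0 calls in limma. At an unadjusted p under 0.05 they held 7 of 26 tested genes, or 26.9%, beside 31.9% of all genes. All 6 urea cycle enzymes, Cps1 and Ass1 among them, were lower in METTL3-HKD livers 1 and 2 than in METTL3-HKD livers 3 and 4. So were the summed hepatocyte markers, while Slc25a30 was split between these livers in the opposite direction. Cps1 had 172, 152, 403 and 376 FPKM across METTL3-HKD mice, against 301 to 663 FPKM in METTL3-Flox mice, and its adjusted p in limma was 0.177.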

How the data were processed

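Livers of 4 METTL3-HKD and 4 METTL3-Flox mice were grouped by their labels. Libraries were made from total RNA (RNeasy kit) with the SMARTer mRNA-Seq kit. The authors deposited FPKM with a length per gene for 54532 genes. GRCm38 and mm10 come from the submitters' processing notes, and the aligner, counter, strand setting and scaling are not given in the sources used here. FPKM times gene length gave whole reads within 0.05 for 100% of non-zero values in each liver. The library size behind these values differed from the reads on genes. It was 2.01e+07 against 17237993 reads in METTL3-HKD liver 1. In METTL3-Flox liver 1 it was 1.42e+07 against 16914680 reads, so the values had been scaled between livers. Depth on genes was 15861245 to 18434488 reads. Of the 50 carriers, 47 had the same coordinates in GENCODE M21, and 15 shared exon bases with another gene.

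Genes averaging 0.1 FPKM or more over the 8 livers were tested with limma 3.58.1 in R 4.3.3 (trend, two-sided) on log2(FPKM + 0.1), with Benjamini-Hochberg adjustment over 16645 genes. Fold changes on this scale understate those of low genes. Ratios of related carriers were compared by exact permutation, with code written for this purpose in Python 3.11.15 (numpy 2.4.6). On simulated data for 14568 genes, 198 of 199 changed genes and 13 unchanged genes were called. The changes planted there were larger on the log2 scale than that of any called carrier. Their spread was set and not taken from these livers. This recovery therefore does not give the sensitivity to changes of the size reported here. Other settings tried were scaling to reads on genes or by median of ratios, 1 FPKM as the pseudocount, 1 FPKM or none as the minimum, no trend, array quality weights, voom on whole reads with TMM factors (computed by code written for this purpose, not by a package), a replicate block, protein-coding genes only and omission of each liver.

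Values per liver were to be given for carriers with an adjusted p under 0.05, the 8 most abundant and the Ucp genes, and from each pathway list the genes past the test, at most 3 by smallest p. Sfxn3 and Sfxn5 are both named at that limit. Slc25a4, Slc25a22, Slc25a24, Slc25a25, Cps1, Ass1, Sfxn2, Alas2, Des, Lrat and Colec11 were given per liver or named after their values were seen. The values of 1 tested carrier, which entered the fit and the totals, are not reported here. The members and lists were chosen with earlier results of these data known.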

Additional observations from a re-analysis of the deposited data

Results flagged for a closer look

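In each genotype group of 4 livers, the most extreme liver was compared with the others by the ratio of its gap to the range (Dixon's critical value 0.829). Of 84 groups 3 held a liver that far from the rest, where chance gives about 1 in 20. Ucp2 was at 6.84 FPKM in METTL3-Flox liver 4, against 8.75 to 9.05 FPKM in the other METTL3-Flox livers. Slc25a24 was at 0.492 FPKM in METTL3-Flox liver 1, against 0.748 to 0.779 FPKM. Slc25a2 was at 0.0404 FPKM in METTL3-HKD liver 3, against 0.182 to 0.198 FPKM in the other METTL3-HKD livers.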

How the results depend on the processing

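Slc25a23, Slc25a48 and Slc25a29 passed the threshold in the same direction under all 18 other settings, Slc25a30 under 13, Slc25a11 under 10 and Slc25a44 and Slc25a45 under 9 each. Of these settings, scaling by median of ratios could hardly change a call. Its factors were 1.01 in every liver, and it gave 1502 genes higher and 1104 lower, beside 1506 and 1104 as reported. The carriers called higher and lower numbered 1 and 6 as reported, 2 and 3 with scaling to reads on genes, and 0 and 1 without METTL3-HKD livers 1 and 3 (added after the data were seen, and a fit of fewer livers). Without the mean-variance trend 3 were lower, and with protein-coding genes only 2 were higher. Leaving out 1 liver gave 0 to 2 higher and 3 to 6 lower. All genes called higher numbered 2309 with reads on genes and 681 without METTL3-HKD livers 1 and 3, and 747 to 1659 with 1 liver left out. All genes called lower numbered 374, 264, 682 with no minimum, and 355 to 1148 with 1 liver left out. The cause was not tested.

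With the replicate number of the labels as a block, 971 genes were higher and 645 lower, and 3 carriers were lower. Same-numbered livers did not deviate together (r = 0.0711, -0.0838, -0.0134 and -0.0339 for numbers 1 to 4, and METTL3-HKD liver 1 alone correlated best with its own number), so the numbers were not taken as pairs.

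The difference of log2 ratios of Slc25a4 to Slc25a5 was 0.36 without METTL3-HKD livers 1 and 3, and that of Slc25a15 to Slc25a29 was 0.46 with a pseudocount of 1 FPKM. With 1 liver left out, the ratio differences ran as follows. They ran from 0.98 to 1.62 for Slc25a4/Slc25a5, 0.25 to 0.43 for Slc25a12/Slc25a13, -0.54 to -0.23 for Slc25a28/Slc25a37 and -0.32 to -0.09 for Slc25a39/Slc25a40. They ran from -0.54 to -0.10 for Slc25a33/Slc25a36, -0.46 to -0.16 for Slc25a16/Slc25a42, 0.69 to 0.99 for Slc25a15/Slc25a29, 0.43 to 1.21 for Slc25a24/Slc25a25 and -1.40 to -0.74 for Slc25a23/Slc25a25.

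Of the carriers that were not called, 17 changed sign under some setting, 4 of them only with 1 liver left out. With reads on genes these were Slc25a5 (0.15), Slc25a12 (0.17), Slc25a28 (0.11), Slc25a33 (0.05), Slc25a34 (0.01), Slc25a42 (0.20), Slc25a46 (0.19) and Slc25a53 (0.03). Without METTL3-HKD livers 1 and 3 they were Slc25a15 (-0.03), Slc25a17 (-0.01), Slc25a36 (-0.03), Slc25a42 (0.04) and Slc25a51 (-0.07), and with array quality weights Slc25a40 (-0.01). With 1 liver left out, the log2 fold changes ran from -0.11 to 0.02 for Slc25a5, -0.13 to 0.02 for Slc25a12, -0.07 to 0.14 for Slc25a15, -0.06 to 0.08 for Slc25a17, -0.17 to 0.32 for Slc25a2, -0.23 to 0.47 for Slc25a25, 0.00 to 0.20 for Slc25a26, -0.03 to 0.08 for Slc25a3, -0.37 to 0.01 for Slc25a34, -0.02 to 0.26 for Slc25a36, -0.07 to 0.15 for Slc25a40, -0.17 to 0.13 for Slc25a42, -0.07 to 0.05 for Slc25a46 and -0.09 to 0.14 for Slc25a51. Carriers with few reads, such as Slc25a2 with 1 to 5 per liver, were limited by depth.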

Other observations

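Of the carriers that lie beside another carrier with 0 protein-coding genes between, several pairs joined a gene near or under the limit of detection with an expressed one. Slc25a41 ends 2056 bases from Slc25a23 on chromosome 17, and its 0 reads stand beside 1788 to 3420 reads of Slc25a23 per liver. Slc25a43 lies 18448 bases from Slc25a5 on chromosome X, with 0 to 4 reads beside 4511 to 6288 reads. Slc25a54 lies 6461 bases from Slc25a24 on chromosome 3, with 0 reads beside 24 to 181 reads. Ucp3 lies 6904 bases from Ucp2 on chromosome 7, with 0 to 17 reads beside 718 to 1431 reads.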
